A study of Drosophila melanogaster with 2 samples.

Results

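MicroRNA (miRNA) genes were taken as all 262 genes whose transcript carries the biotype pre_miRNA in the Ensembl annotation of the fly assembly BDGP6. The 260 of them that lie on the chromosomes, among 17796 annotated genes there, were searched for peaks of accessible chromatin, and the other 2 lie on an unplaced scaffold that the authors left out of peak calling. The rule used the annotation alone and no measured value. Chromatin accessibility had been measured by ATAC-seq, in which the Tn5 transposase inserts adapters into open DNA, in mushroom body (MB) nuclei of naive flies. Both samples had the genotype w*;UAS-Unc84::2xGFP/+;R14H06-Gal4/+, in which the R14H06-Gal4 driver puts a GFP-tagged nuclear envelope protein into Kenyon cells, the intrinsic neurons of the MB, with sparse labelling of other cells. Each sample pooled the nuclei of 50 to 60 heads taken 1 h after courtship training began in the matching trained flies, and according to the methods these were male flies. There was 1 group with 2 biological replicates, so there was no comparison between groups and no test, and values are given for both replicates. In pooled nuclei, weak accessibility in many cells cannot be told apart from strong accessibility in few.

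A miRNA begins as a hairpin within a longer primary transcript made by RNA polymerase II. The nuclear enzyme Drosha with its partner Pasha cuts the hairpin out, Dicer-1 trims it to a short duplex, and 1 strand is loaded into Argonaute-1, which it guides to messenger RNAs that pair with its seed, the stretch near its 5′ end. A primary transcript can be a gene of its own or the messenger RNA of a protein-coding host whose intron holds the hairpin, and its promoter can lie next to the hairpin or far upstream. In the fly brain, miRNAs are known for roles in the timing of neuronal identity, in synapse growth and in memory.

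The miRNAs on which the results turn are shown first, as mature strands read from the RefSeq annotation and genome of the same assembly (dm6, Release 6), 5′ to 3′ and with the seed (bases 2 to 8) in capitals. All 260 miRNA genes had at least 1 mature strand there, and 33 seeds were shared by 2 or more genes, 73 genes in all. The let-7 complex encodes 3 strands with different seeds in 1 transcript, miR-276a and miR-276b share a seed but lie in separate genes, miR-279 and miR-996 share both seed and locus, and miR-13a, miR-13b-1 and miR-2c stand for the AUCACAG seed, the most widely shared of all with 14 genes. The other strands belong to genes of the neuronal list described below.
let-7-5p: uGAGGUAGuagguuguauagu
miR-100-5p: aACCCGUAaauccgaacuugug
miR-125-5p: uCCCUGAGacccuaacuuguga
miR-276a-3p: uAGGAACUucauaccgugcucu
miR-276b-3p: uAGGAACUuaauaccgugcucu
miR-279-3p: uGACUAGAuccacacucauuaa
miR-996-3p: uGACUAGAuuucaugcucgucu
miR-13a-3p: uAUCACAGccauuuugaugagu
miR-13b-1-3p: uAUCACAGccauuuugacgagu
miR-2c-3p: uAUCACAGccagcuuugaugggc
miR-1000-5p: aUAUUGUCcugucacagcagu
miR-34-5p: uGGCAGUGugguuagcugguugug
miR-9a-5p: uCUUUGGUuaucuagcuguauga
bantam-3p: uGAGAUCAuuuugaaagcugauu
miR-124-3p: uAAGGCACgcggugaaugccaag

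An accessible region was counted for a miRNA gene when a peak from each replicate, merged into 1 consensus region where the peaks shared at least 1 bp, reached the hairpin or the 2 kb upstream of its 5′ end on its own strand. Of the 260 hairpins, 102 (39.2%) had such a consensus peak in this window. The windows of protein-coding genes, taken the same way at the gene start, held one in 59.5% of 13945 genes, those of other noncoding RNA genes in 33.2% of 2520 genes, and windows of the same length tiled along the chromosomes in 23.9% of 63994 cases. The share at miRNA genes thus lay between those of noncoding RNA and protein-coding gene starts. Replicate 1 alone gave 113 hairpins with a window peak and replicate 2 gave 110, which was 111.5 ± 2.12 (SD, n = 2). A window peak was found only in replicate 1 for 9 hairpins and only in replicate 2 for 6, 2 hairpins had peaks in both that did not meet, and 141 had none.

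The hairpin itself was covered by a consensus peak in 40 cases (15.4%), where windows of the median hairpin length of 92 bp tiled along the chromosomes had one in 8.48% of cases. In the other 62 no peak covered the hairpin in both replicates. The summit, the position of highest signal in a peak, lay a median of 1004 bp upstream of the hairpin 5′ end in replicate 1 and 1076.5 bp in replicate 2. It lay downstream of the 5′ end in 10 and 9 of the 102. For 76 hairpins (74.5%) the strongest window peak covered an annotated transcription start site (TSS): that of the gene holding the hairpin in 57 cases, and that of a different gene only in 19. No annotated TSS lay under the peak of the remaining 26 (25.5%).

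The share with a peak was also counted by where the hairpin lay. Of 103 intronic hairpins (inside a same-strand intron), 44 (42.7%) had a consensus peak in the window, of 82 exonic ones (overlapping a same-strand exon, mostly of a noncoding RNA) 37 (45.1%), of 48 intergenic ones 17 (35.4%), and of 27 that overlapped only a gene on the opposite strand 4 (14.8%). Tiled windows whose hairpin part lay in an intron of a protein-coding gene held a consensus peak in 25.3% of cases, and those whose hairpin part was intergenic in 15.4%. Intronic and intergenic hairpins were therefore above the tiled windows of their own kind. The antisense share was below that of all tiled windows, but several antisense hairpins belong to clusters, among them the 6 of the mir-959 cluster. No share by locus and no tiled windows of the antisense kind were computed, so no depletion can be read from it. The hairpin itself was covered most often among intronic genes (24 of 103), less in the exonic (9 of 82) and intergenic (5 of 48) classes, with 2 of 27 for antisense hairpins.

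**Figure D1:**
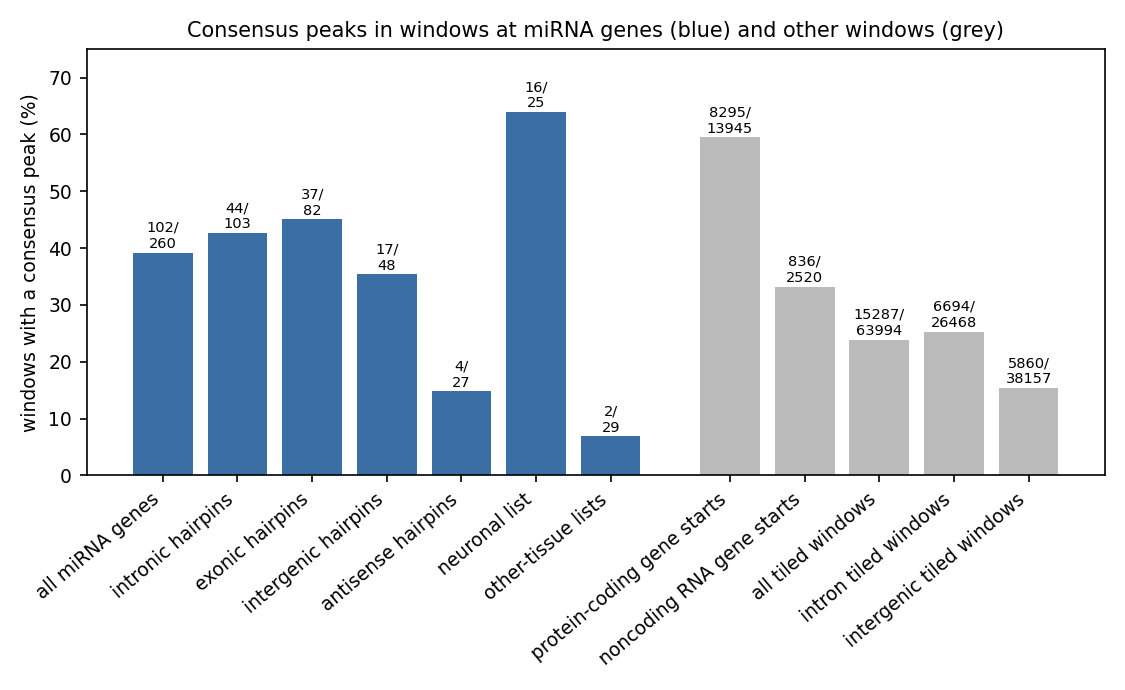
Percent of windows (hairpin plus 2 kb upstream, or an equal length elsewhere) with a consensus peak in both replicates, for miRNA genes and their classes and lists (blue) and for other windows (grey), with counts above each bar. The neuronal list (16 of 25) stands highest and the other-tissue lists (2 of 29) lowest, and the tiled windows lie below the intronic, exonic and intergenic hairpins. These lists were written with earlier results of these data known, and they count clustered hairpins separately.

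By chromosome, the share of hairpins with a window peak was lowest on X (15 of 58, 25.9%) and highest, among the long arms, on 2R (30 of 55, 54.5%). It was 32.1% on 2L (18 of 56), 38.7% on 3L (12 of 31) and 43.1% on 3R (25 of 58), and both hairpins of chromosome 4 had one. Tiled windows were also called least often on X (18.3%), while their shares on 2R (25.4%), 2L (25.2%) and 3R (25.8%) lay close together, with 23.6% on 3L and 31.8% on 4. Clustered hairpins count separately in the miRNA shares, among them 12 on X in the mir-972 cluster, none with a window peak. No share by locus was computed for the chromosomes, so no difference between them can be read from these shares.

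Hairpins in 1 transcript share their window peaks, so they are not separate measurements. The 260 hairpins formed 203 loci when same-strand neighbours up to 10 kb apart were joined, 22 of them with 2 or more hairpins (79 hairpins). The 102 hairpins with a window peak came from 89 loci and used 90 distinct strongest peaks. Of the 22 clusters, 6 had a window peak at every hairpin, 7 at some and 9 at none. The clusters with none included mir-9c, mir-306, mir-79 and mir-9b in an intron of grp, mir-92a with mir-92b, and mir-283, mir-304 and mir-12, which were named here after their values were seen.

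Peak strength was described by fold enrichment, the authors' ratio of the pileup at the summit over a background from the same library, and by its percentile among all peaks of that replicate. Among the 102 hairpins, the strongest window peak had a median fold enrichment of 2.682 in replicate 1 and 2.544 in replicate 2 and a median percentile of 70.03 and 70.68 (70.36 ± 0.456, SD, n = 2). The strongest peaks in protein-coding gene-start windows had median percentiles of 73.3 and 74.1 by the same method, and those in tiled windows 66.4 and 68.0. Where miRNA gene windows were accessible, their peaks thus ranked between both kinds of window. The pileup behind them, recovered from fold enrichment and the p-value, had medians of 315.5 (replicate 1) and 325 (replicate 2), with Poisson counting errors of 5.63% and 5.55%, and the lowest were 116 and 132. The 95% Poisson intervals of fold enrichment, which cover counting error only, overlapped between replicates for 97 of the 102.

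Peaks over an annotated TSS ranked higher in the median than those over none: the 76 had median percentiles of 75.8 in both replicates and the 26 had 54.7 and 55.8. By class, the medians were 69.5 and 68.1 for intronic, 61.4 and 75.6 for exonic, 70.3 and 71.6 for intergenic and 79.0 and 80.1 for the 4 antisense hairpins. The order of the intronic, exonic and intergenic classes differed between replicates, so peak strength gave these classes no stable order.

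**Figure D2:**
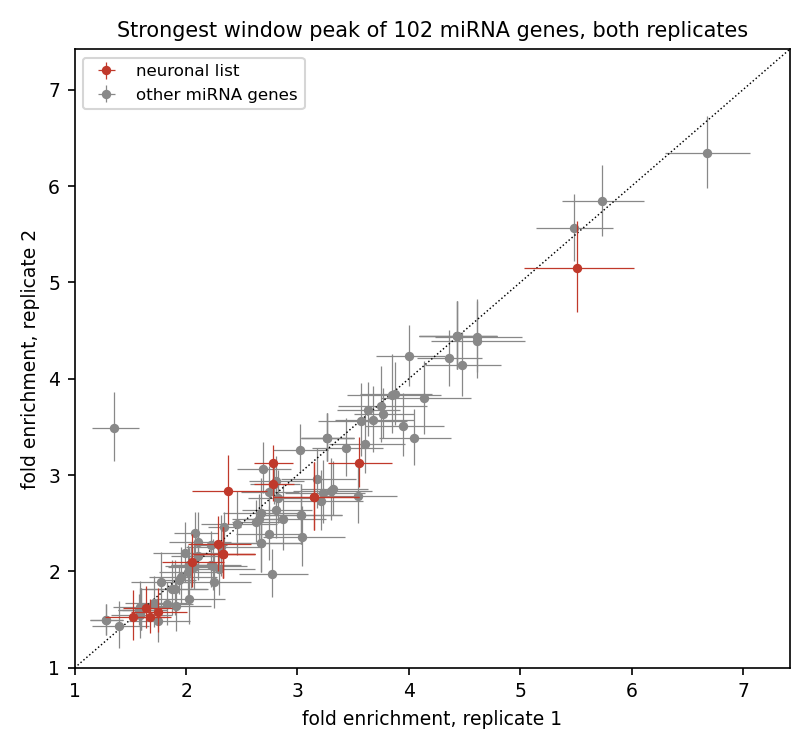
Fold enrichment of the strongest window peak in replicate 1 (x axis) and replicate 2 (y axis) for the 102 miRNA genes with a consensus peak, each with its 95% Poisson interval, the neuronal list in red, other miRNA genes in grey and the line of equality dotted. Most points lie on the line, and mir-4961, at 1.353 in replicate 1 and 3.488 in replicate 2, lies farthest from it.

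The difference at mir-4961 came from how a region was divided into peaks. The strongest peak that reached its window had its summit 1841 bp upstream of the hairpin in replicate 1 and 2937 bp upstream in replicate 2, where 1 wider peak also covered the TSS of ssx. The percentile differed between replicates by more than 10 in 13 of the 102 hairpins, and the median difference was 4.07.

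The highest-ranked window peak of all belonged to mir-2493, in an intron of CG42788 (3R:15130754-15130859), with fold enrichment of 6.673 and 6.346, pileups of 1170 and 1145 and a mean percentile of 99.76 ± 0.04 (SD, n = 2). It was followed by mir-4973, in an exon of the noncoding RNA lncRNA:CR45347 (5.737 and 5.842), by mir-9374, in an exon of the nuclear receptor gene Hr39 (5.479 and 5.563), and by mir-276a (5.512 and 5.148). All of these peaks covered the TSS of the gene that holds the hairpin, and the first 3 also covered the hairpin. Next came mir-4974 in an intron of CG8671 (percentile 96.21), mir-4977 in an exon of Eaf (96.08), the neighbours mir-2498, mir-991 and mir-992 (95.72 each), mir-4981 (fold enrichment 4.477 and 4.144), mir-4968 in an intron of Mob2 (94.86) and mir-287 (93.54). The peak of mir-2498, mir-991 and mir-992 is 1 peak over the divergent start of HnRNP-K and Nnf1a, and that of mir-4981 covers the start of CG14762. For these 4 intergenic hairpins the ranked peak thus lay over the start of another gene. The peak of mir-287, also intergenic, covered the start of lncRNA:CR45358. Whether transcripts of these hairpins begin at such starts was not tested. The other hairpins in the cluster of mir-2498, namely mir-310, mir-311, mir-312 and mir-313, lay 2512 to 2932 bp downstream of the consensus region over HnRNP-K and Nnf1a and had no window peak.

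The hosts of intronic hairpins were accessible at their own starts in most cases. A TSS peak, the strongest peak within 500 bp of any annotated TSS of the gene, was present in both replicates for the hosts of 86 of 103 intronic hairpins (83.5%), or 76 of 93 distinct hosts (81.7%). Over all protein-coding genes it was present in 56.0%. A gene with more annotated starts has more chances of such a peak. No background matched for the number of starts was computed, here or for the TSS peak counts below. The median percentile of the host TSS peaks, as the mean of both replicates, was 83.84 over distinct hosts. Window peaks were commonest where the hairpin lay near the start of its host: with the nearest upstream host TSS up to 2 kb away, 26 of 36 hairpins had a window peak, from 2 to 10 kb 12 of 47, and beyond 10 kb 6 of 20. Up to 2 kb the host TSS lies inside the window by definition, so a higher share there is partly built in. A peak at any TSS of the host was found in 28 of 36, 40 of 47 and 18 of 20 of them. At the nearest upstream host TSS alone, 68 of the 103 intronic hairpins had one.

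**Figure D3:**
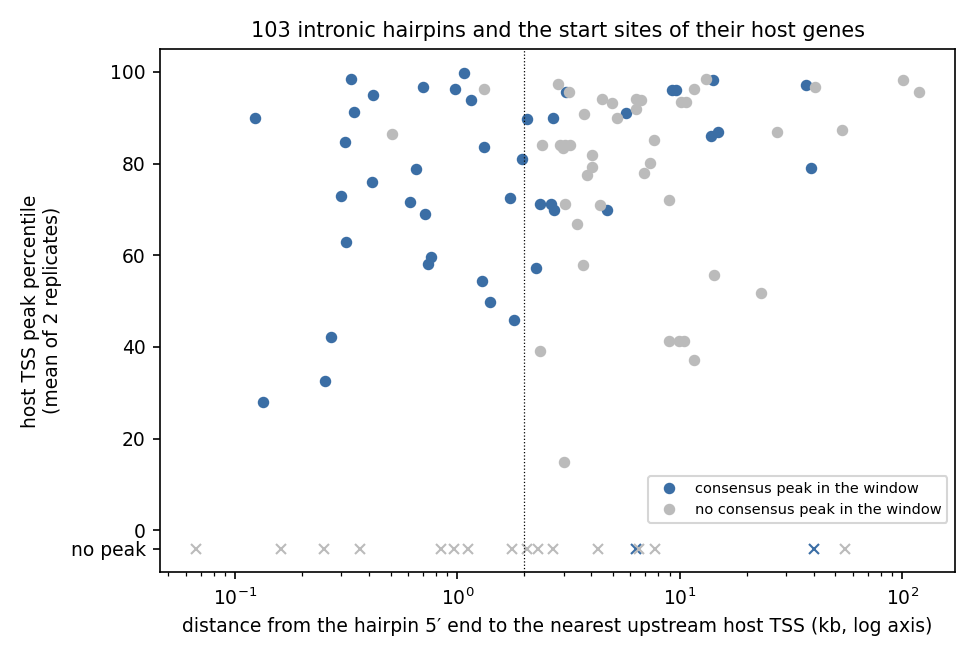
Each of the 103 intronic hairpins by its distance to the nearest upstream TSS of its host (x axis, kb, log scale) and by the mean percentile of the host TSS peak over both replicates (y axis), with crosses at the bottom for hosts without a TSS peak in both replicates and a dotted line at 2 kb. Blue marks a consensus peak in the window of the hairpin and grey none. Blue points dominate left of the line (26 of 36), where the host TSS lies inside the window by definition, and grey points right of it.

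The 5 intronic hairpins with the highest-ranked host starts were mir-2493, above, mir-2279 in MFS17 (host TSS percentile 98.40), mir-9384 in tacc, which encodes a centrosome protein (98.38), mir-4944 in hth, which encodes a homeodomain protein (98.32), and mir-4946 in tup, which encodes a LIM-homeodomain protein (98.24). Their hairpins lay 1067, 13103, 333, 101143 and 14100 bp from the nearest upstream host TSS. Only mir-2493, mir-9384 and mir-4946 had a window peak as well, and that of mir-4946 covered no TSS (2.455 and 2.489).

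Mirtrons, whose hairpin is the intron itself and which bypass Drosha, were 34 of the intronic genes by a tolerance of 5 bp at each intron end. A window peak was found for 12 of them (35.3%), against 32 of the other 69 (46.4%), and a host TSS peak for 22 of 34 (64.7%), against 64 of 69 (92.8%). Hosts without a TSS peak among mirtrons included the ionotropic receptor genes Ir93a and Ir8a, named here after their values were seen. Peaks inside neuronal genes, also named after their values were seen, were found at mir-999 and mir-4969 in CASK, a synaptic scaffold gene (1 shared peak, 1.598 and 1.603), and at mir-4960 in Appl, the amyloid precursor-like gene (1.898 and 1.819). Neither peak covered a TSS.

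Of 82 exonic hairpins, 47 lay in exons of annotated noncoding RNAs, and 30 of these (63.8%) had a host TSS peak. In all 23 of the 32 distinct noncoding hosts had one, whereas 28.1% of all noncoding RNA genes other than miRNA genes did, these hosts included. Among the 30 the hairpin window held a peak in 22, and among the 17 hairpins whose noncoding host had no TSS peak in 1. Of these 17, 8 are the mir-309 cluster in lncRNA:CR44504, so they are not separate measurements. The 35 hairpins in exons of protein-coding genes had a host TSS peak in 28 cases and a window peak in 14, each of them with an accessible host start. For both kinds of host, 1 peak can count as both where the host start lies in or near the window. The window and host TSS calls are therefore not independent.

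Of the 48 intergenic hairpins, 17 had a window peak, and for 7 of them a peak remained in the window once peaks over the TSS of another gene were left out. The 6 whose strongest peak covered no TSS were mir-9385, mir-210, mir-9376, mir-957, mir-317 and mir-4950. mir-317 lies upstream of mir-277 and mir-34 and had fold enrichment of 2.228 and 2.276, and mir-957 had 2.021 and 1.994. Within 10 kb upstream, 35 of 48 intergenic hairpins (72.9%) had a consensus peak, where 56.9% of tiled windows of that length had one. Across all classes, the 158 hairpins without a window peak lay a median of 6964 bp from the nearest upstream consensus peak, up to 98204 bp, and 20 of them more than 20 kb.

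A list of 25 miRNAs with known neuronal or brain roles had a window peak for 16 (64.0%), with 59.5% of protein-coding and 33.2% of noncoding RNA gene starts as background. This list was written with earlier results of these data known. The 25 hairpins formed 22 loci and the peaks were 13 distinct ones. The 3 hairpins of the let-7 complex share a peak, as do mir-279 and mir-996. Set against 22 loci, 13 peaks give no clear excess over the share of protein-coding gene starts. Of the 21 hairpins inside a host, 17 of them in a noncoding RNA, 20 had a host TSS peak (95.2%). Over all genes, 28.1% of noncoding RNA and 56.0% of protein-coding genes had a TSS peak. Hosts shared by several hairpins count more than once here, such as that of the let-7 complex. A peak at either place was found for 21 of 25. In both replicates a peak covered the hairpin itself only for mir-14 and mir-1000, and in 1 replicate also for mir-279 and mir-282. The count of 16 depended on the window: it was 9 with 1 kb upstream, 10 with the summit required in the window and 6 without peaks over a TSS.

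The strongest was mir-276a, known in flies for a role in olfactory memory (3L:10365228-10365325). Fold enrichment was 5.512 (95% Poisson interval 5.038 to 6.019) in replicate 1 and 5.148 (4.696 to 5.632) in replicate 2, with a mean percentile of 98.74 ± 0.16 (SD, n = 2). The peak covered the TSS of lncRNA:CR46006, which holds the hairpin in an exon, with its summit 1321 and 1303 bp upstream of the hairpin. Its seed partner mir-276b (3L:10319785-10319883) had no window peak but lies in lncRNA:CR46004, whose start, 12901 bp upstream, carried fold enrichment of 5.706 and 5.574 (percentile 99.18). Both hosts thus ranked among the top peaks of each list, at very different distances from the hairpin.

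The let-7 complex makes miR-100, let-7 and miR-125, which set the timing of neuronal identity in the MB of flies, from the single transcript lncRNA:let7C (hairpins from 2L:18471434-18471533 to 2L:18472315-18472424). Its 3 windows shared 1 peak with fold enrichment of 2.328 and 2.186 (percentile 61.04 ± 0.08, SD, n = 2), with its summit 1525 and 1590 bp upstream of mir-100 and under no annotated TSS. The nearest start of lncRNA:let7C lay 15717 bp upstream of mir-100, and its TSS peak had fold enrichment of 2.348 and 2.397 (percentile 64.22). Both values at the distal start lay inside the 95% Poisson intervals of the proximal peak, which were 2.064 to 2.617 in replicate 1 and 1.934 to 2.462 in replicate 2.

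mir-279 and mir-996, which act in the specification of olfactory neurons (3R:29215585-29215684 and 3R:29217184-29217280), shared the TSS peak of their host lncRNA:CR31044 with fold enrichment of 3.147 and 2.768 (percentile 77.51 ± 2.74, SD, n = 2). mir-14, known for roles in cell death and fat metabolism, had 2.780 and 3.124 (77.40), and mir-1000, a regulator of the vesicular glutamate transporter (3R:25588859-25588958), had 2.784 and 2.912 (75.40). mir-1000 lies in lncRNA:CR45910, opposite to msi, which encodes an RNA-binding protein. By pileup, these last 2 were among the highest of all peaks: mir-14 had 987 and 1089 over a background of 354.3 and 347.9 (pileup percentile 99.69), and mir-1000 had 947 and 964 over 339.5 and 330.4 (99.38). By comparison, mir-276a had 494 and 474 over 88.8 and 91.3 (86.30), so the order of these miRNA genes depended on whether the peaks were ranked by fold enrichment or by pileup. The pileup percentiles of the 102 window peaks had medians of 68.32 and 71.11, close to those by fold enrichment.

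The window peaks of mir-7, in an intron of HnRNP-K (percentile 84.38), mir-282 (69.47), mir-8 (61.92) and mir-9a (55.46) all covered the start of the gene that holds the hairpin. For mir-7 and mir-8 the strongest host TSS peak ranked above the window peak, at percentiles of 95.72 and 86.62. mir-7 acts in photoreceptor differentiation, mir-8 in growth, and mir-9a in sensory organ formation. The peak of mir-282 differed most between replicates on this list, with 2.372 and 2.834 (SD of the percentile 10.44). The 4 weakest were bantam, a growth regulator that blocks cell death (1.745 and 1.584, percentile 36.08), mir-184 (1.642 and 1.624, 34.92), mir-34, known for its part in brain ageing (1.673 and 1.531, 32.13), and mir-210 (1.526 and 1.529, 25.98). For bantam and mir-184 the strongest host TSS peak ranked above the window, at percentiles of 82.88 and 95.48, and for mir-34 it was at 51.58, 7175 bp upstream. mir-34, mir-184 and mir-210 had window peaks under no annotated TSS.

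Of the 9 neuronal miRNAs without a consensus peak in the window, 5 had a peak in both replicates at a host TSS. mir-124, the conserved neuronal miRNA (2L:17566370-17566469), lay 4104 bp downstream of the nearest consensus peak, and had no peak in either replicate at the nearest TSS of its host lncRNA:CR45919, 263 bp upstream. The TSS peak of this host, with fold enrichment of 3.585 and 3.566 (percentile 87.95), lay at another of its starts. mir-932, in an intron of the synaptic adhesion gene Nlg2 (host TSS percentile 89.86), mir-190 in rhea, the talin gene (96.22), mir-263a (74.88) and mir-276b, above, were the other 4. mir-190 also had a peak in replicate 1 only (1.493). The last 4 had neither: mir-137 lay 4808 bp and mir-219 13806 bp from the nearest upstream consensus peak, mir-263b in meru had 3 window peaks in replicate 2 only (strongest 1.484), and mir-980, known in flies as a memory suppressor, had 1 in replicate 1 only (1.455, 95% Poisson interval 1.213 to 1.732).

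**Figure D4:**
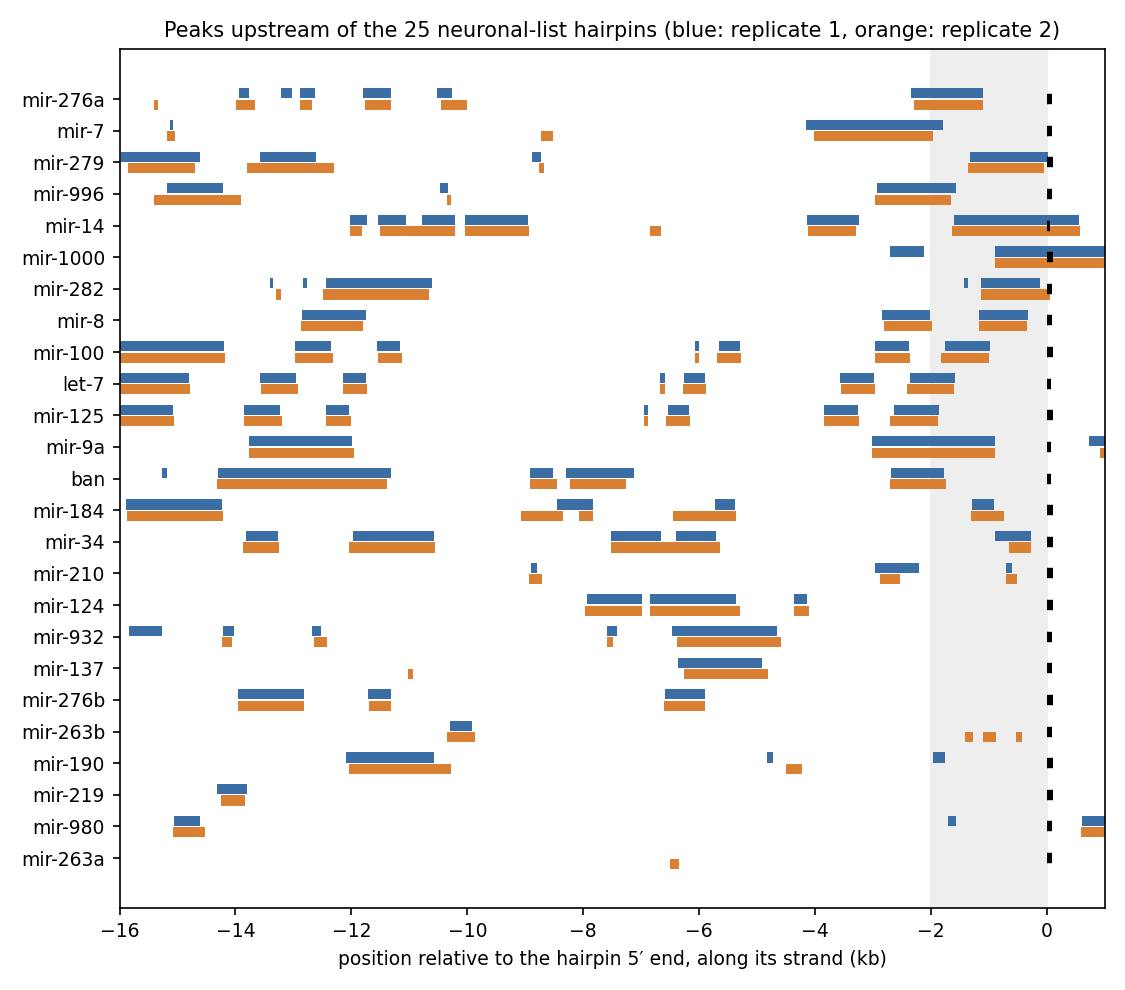
Peaks of replicate 1 (blue) and replicate 2 (orange) around the 25 hairpins of the neuronal list, by position relative to the hairpin 5′ end along its strand (x axis, kb; upstream is negative), with the hairpin in black and the 2 kb window shaded. The upper 16 rows have a consensus peak in the window; below them mir-124, mir-932, mir-137 and mir-276b have their nearest peaks 4104 to 5905 bp upstream.

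**Figure D5:**
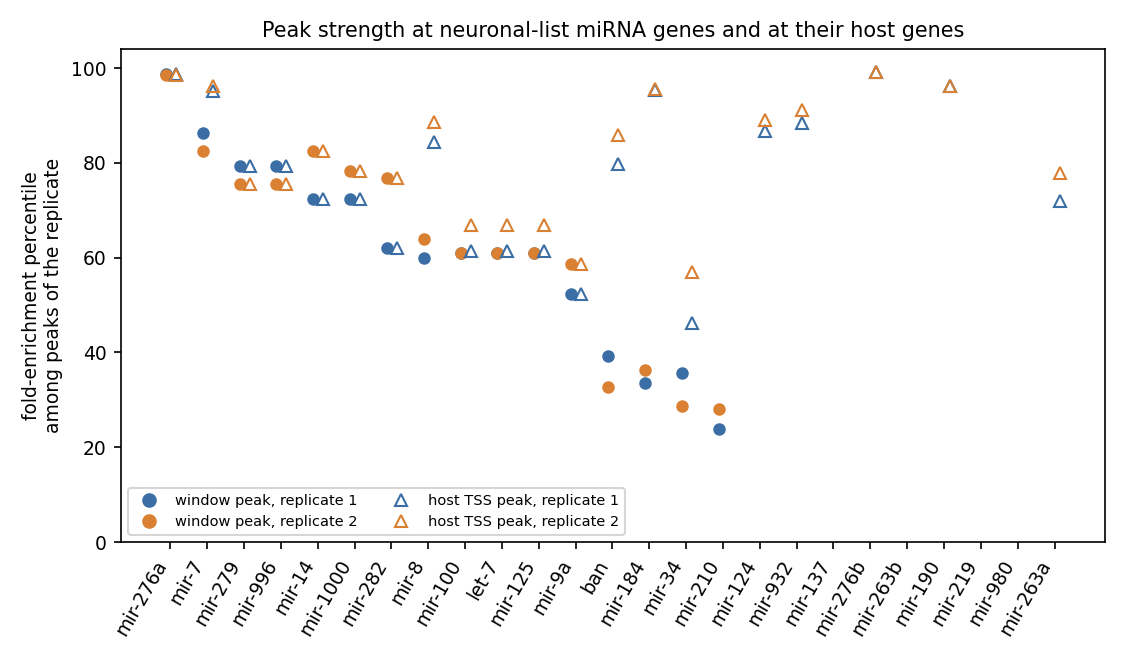
Fold enrichment percentile (y axis) of the strongest window peak (filled circles) and of the host TSS peak (open triangles) in replicate 1 (blue) and replicate 2 (orange) for each neuronal-list miRNA. Window peaks range from a mean percentile of 98.74 at mir-276a to 25.98 at mir-210. The host TSS peak ranks above the window peak in both replicates at mir-7, mir-8, the let-7 complex, bantam, mir-184 and mir-34.

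Of 29 miRNAs known from other tissues, most of them in clusters, 2 (6.90%) had a window peak, where 23.9% of all tiled windows had one. Neither muscle miRNA had one: mir-1 and mir-133 lay 6913 and 5411 bp from the nearest upstream consensus peak. The 8 hairpins of the early embryonic mir-309 cluster, which clears maternal messenger RNAs, all lie in lncRNA:CR44504 and had neither a window peak nor a host TSS peak. Of 6 hairpins of the mir-959 cluster, expressed in the fat body of the head, 5 shared a peak of replicate 2 alone (1.395, percentile 9.59) and none had a consensus peak. Of 13 testis miRNAs the only 2 with a peak were mir-982 and mir-303, and their shared peak (2.670 and 2.299) covered the start of CG3626. The lists hold few loci, since most of these hairpins belong to clusters, so 2 of 29 is not a share of separate measurements. No share by locus was computed for them, and they too were written with earlier results of these data known. Of the 206 miRNAs in neither the neuronal nor the other-tissue lists, which include the 4 Hox miRNAs described below, 84 (40.8%) had a window peak.

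The labelled cell type was checked against genes that mark it. All 7 MB markers tested (ey, dac, prt, sNPF, Dop1R2, rut and Fas2) had a TSS peak in both replicates, with mean percentiles of 87.32 to 98.87. Over all protein-coding genes, 56.0% had such a peak, so these small counts alone say little about cell type. Of 10 markers of other cells, 4 had a TSS peak in both (moody and Eaat1 of glia, vas and nos of the germ line, at 58.75 to 83.38). The markers repo, ninaE, Mhc, Lsp2 and Yp1 had a peak in neither replicate. trp had one in replicate 2 alone. How far other cells contributed to the peaks at miRNA genes was not tested.

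The Hox miRNAs, which lie in the Hox gene complexes and repress Hox genes, had a window peak for 2 of 4 and a window or host TSS peak for all 4. mir-iab-8 (3R:16856275-16856342), in an intron of MSAmiP and lncRNA:iab8, had a peak of 3.850 and 3.828 (percentile 91.13 ± 1.17, SD, n = 2) under no annotated TSS, the strongest of the 26 such peaks. The peak of mir-10 had 1.955 and 1.942 (50.60). mir-993 and mir-iab-4 had none in the window, and the starts of their hosts ranked at 68.16 and 74.89.

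The members of the AUCACAG seed family, of which the 3 shown above differ outside the seed, were spread over several loci. A window peak was found for 7 of 14, where 39.2% of all miRNA genes had one. Several of the 14 are neighbours in a cluster, so they are not separate measurements. mir-13a, mir-13b-1 and mir-2c shared the TSS peak of lncRNA:CR45911 (3.262 and 3.388, percentile 84.05), with pileups of 723 and 738. mir-13b-2 in CCT2 had a percentile of 72.5 and mir-308 in RpS23 69.1. mir-2a-1 and mir-2b-2 in spi, which encodes an EGF receptor ligand, shared a peak at 54.32, and the window of their neighbour mir-2a-2 was reached by that peak in replicate 1 only (2.025). mir-11 in E2f1 had no window peak but a host TSS percentile of 93.34, mir-2b-1 in Btk likewise 80.76, and mir-5, mir-6-1, mir-6-2 and mir-6-3 lie in the mir-309 cluster. The second-largest seed group, AUUGCAC with mir-92a, mir-92b and mir-310 to mir-313, had a window peak for none of 6. In this group mir-92a and mir-92b share a cluster, as do mir-310 to mir-313.

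Among windows with a peak in 1 replicate only, the strongest in replicate 1 were mir-9383 (2.731), mir-2a-2 (2.025) and mir-277 (1.673). For mir-9383 and mir-2a-2 a consensus region lay 1979 and 1994 bp upstream of the hairpin, so the edge of the replicate 1 peak alone reached the window. At mir-277 the replicate 1 peak reached the hairpin. The replicate 2 peak of the same consensus region, counted for mir-34, began downstream of the mir-277 hairpin. The strongest in replicate 2 were mir-263b (1.484) and the mir-959 group (1.395).

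Most genes for proteins of the miRNA pathway were accessible at their starts: 19 of 20 had a TSS peak in both replicates, where 56.0% of protein-coding genes did, with a median percentile of 79.18. Of the processing factors, drosha had fold enrichment of 2.768 and 2.330, Ars2 3.150 and 2.936, Ranbp21 (exportin-5) 3.479 and 3.753, and Dcr-1 1.959 and 1.798. loqs, the partner of Dicer-1, was near the bottom of both lists (1.268 and 1.360), and pasha, the partner of Drosha, was the 1 gene without a consensus TSS peak, with 1.293 in replicate 1 alone. AGO1 had 2.798 and 3.004 and gw, which silences its targets, 3.713 and 3.585. The small interfering RNA factors Dcr-2 (2.931 and 2.751), r2d2 (4.421 and 3.794) and AGO2 (6.985 and 6.048) were also accessible, and AGO2 ranked highest of the 20 at 99.87 and 99.65. The enzymes that modify small RNA ends had percentiles of 51.93 and 50.28 (Hen1), 75.28 and 73.61 (Tailor) and 2.48 and 0.49 (nbr), and the deadenylation and decay factors me31B, twin, Pop2, Not1, PAN2 and PAN3 lay between 49.45 for me31B and 98.41 for PAN3 in replicate 2.

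Sequences at the summits were searched on both strands, within 100 bp of the summit of replicate 1, for 6 motifs in the 90 distinct regions of the miRNA genes and in all 11705 consensus regions. The GA repeat GAGAGAG, of the kind bound by GAGA factor, was found in 11.1% of the miRNA regions and 10.1% of all, and the DNA replication-related element TATCGATA in 3.33% and 3.26%. The cyclic AMP response element TGACGTCA was found in 0.00% (0 of 90) and 0.564%, the AP-1 site TGANTCA in 1.11% and 3.42%, the nuclear receptor site AAAGGTCA in 1.11% and 0.367%, and the E-box CACGTG in 2.22% and 4.39%. With 90 regions, 1 region more or fewer moves such a share by over 1 percentage point.

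Below are 3 such windows of 201 bases centred on the summit of replicate 1, from the RefSeq genome (dm6), each read on the strand of its hairpin and with matches to these motifs in capitals. They are the window peak of mir-276a (3L:10363807-10364007, + strand), that of mir-1000 (3R:25589321-25589521, - strand) and that of mir-iab-8 (3R:16857759-16857959, - strand). Only the last held a match, a run of overlapping GA repeats.
mir-276a: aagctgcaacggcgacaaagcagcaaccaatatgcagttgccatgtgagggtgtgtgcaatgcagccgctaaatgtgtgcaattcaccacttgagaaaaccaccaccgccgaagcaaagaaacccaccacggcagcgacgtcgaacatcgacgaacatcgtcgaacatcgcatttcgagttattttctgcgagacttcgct
mir-1000: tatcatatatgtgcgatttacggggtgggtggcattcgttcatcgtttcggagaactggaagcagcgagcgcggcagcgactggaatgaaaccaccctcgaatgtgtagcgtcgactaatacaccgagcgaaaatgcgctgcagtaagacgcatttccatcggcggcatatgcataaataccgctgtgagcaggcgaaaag
mir-iab-8: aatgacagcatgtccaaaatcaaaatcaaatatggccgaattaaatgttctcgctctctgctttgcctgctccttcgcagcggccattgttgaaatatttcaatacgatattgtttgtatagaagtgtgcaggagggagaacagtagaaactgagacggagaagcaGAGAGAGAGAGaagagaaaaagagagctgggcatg

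The GC content of these 3 windows was 51.2%, 51.7% and 42.8%. The GA repeat was also found at the regions of mir-287, mir-967, mir-970, mir-1012, mir-4960, mir-4968 and mir-9374 among others, and the element TATCGATA at mir-995 and mir-9380. Exact copies of a whole hairpin occurred more than once in the genome for 5 of the 260, mir-983-1, mir-983-2 and 3 copies of mir-10404, where reads that map to several places were removed by the authors, and none of these had a window peak.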

How the data were processed

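ATAC-seq peak lists of 2 biological replicates of naive MB nuclei were used. According to the study's methods and the submitters' notes, the authors trimmed reads with Trimmomatic (0.39), aligned them with Bowtie2 (2.4.1) to dm6, shifted them for Tn5, removed duplicates, multiply mapped, mitochondrial and scaffold reads, and called peaks with MACS2 (2.1.2) in each replicate at a q-value of 0.01. The deposited lists give for each peak the fold enrichment (a ratio over a background from the same library), the −log10 p-value and −log10 q-value, a score made from the −log10 q (not used) and the summit offset. No control library was named, so open DNA around a summit can lower its fold enrichment. Read totals per sample were not given. The lists held 13868 peaks (replicate 1) and 14583 peaks (replicate 2).

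Pileup and background were solved from the fold enrichment (pseudocount 1) and the Poisson p-value, and pileups came within 0.0183 and 0.0221 of whole numbers. Fold enrichment intervals take the background as fixed and are exact Poisson ones (95%), for counting error alone. Peaks sharing at least 1 bp were merged, and regions with a peak from each replicate were consensus regions (11705). Percentiles are the percent of that replicate's peaks with a lower fold enrichment. Genes, exons and TSSs came from Ensembl release 115 (pre_miRNA is a transcript biotype there), without transposable elements, and let-7, bantam and mir-263a were found as mir-let7, mir-ban and mir-bft, nbr and nos as Nbr and nanos. A hairpin in several hosts was given to a protein-coding one first, then to the shortest. Python 3.11.15, pandas 2.3.3, scipy 1.17.1 and matplotlib 3.10.9 were used, and the overlap and pileup steps were tested on simulated data.

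With 1 group no comparison between groups or paired analysis could be made and no test was run. Named genes were the 12 with the highest window percentile and their clusters, the listed miRNAs and pathway genes, the 5 highest-ranked intronic hosts and the 3 strongest windows of each replicate alone, and any other gene is said to be named after its values were seen or belongs to a seed group, class or motif count given in full or in part. Members, lists and motifs were chosen with earlier results of these data known. Alternatives covered the window reach, peak threshold, each replicate alone, summit position, TSS peaks and clusters.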

Additional observations from a re-analysis of the deposited data

How the results depend on the processing

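Of 64 recomputed values, 48 stayed within 1.5 times the reported count, or within 1 SD for the median percentile, and 16 moved. With 5 kb upstream the counts were 166 for all miRNA genes, 34 intergenic, 70 intronic and 5 of the other-tissue lists, and with 1 kb the neuronal list had 9. With the summit required to lie in the window the neuronal list had 10. Without peaks over any annotated TSS the counts were 28 for all, 7 intergenic, 12 intronic, 6 neuronal and 0 other-tissue miRNA genes. Leaving out only peaks over the TSS of a gene other than the host, an alternative chosen after seeing the data, gave 70 for all, 7 intergenic and 0 other-tissue genes, while the neuronal list kept a count of 16. With 1 replicate left out, the other-tissue count was 7 without replicate 1, through the weak mir-959 peak of replicate 2, and 2 without replicate 2. The median percentile, 69.72 over the replicate means, was 70.04 to 70.68 with 1 replicate left out and 72.09 with peaks of a −log10 q of at least 5 only. No paired analysis was possible because the series has 1 group. The summit pileups limit the weakest window peaks: at mir-210 they were 127 and 136, over backgrounds of 82.9 and 88.6.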
